A study of Mus musculus with 12 samples.

Results

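Genes of TGF-beta, BMP, Wnt and Notch signalling were followed in mouse kidney cortex on spotted 2-colour arrays. The members were chosen by name alone, as all probes whose annotated symbol begins with a family name of these pathways, such as Tgfb, Bmp, Smad, Acvr, Wnt, Fzd, Dkk, Axin, Ctnnb, Jag or Hey. They were 44 of the 15600 probes of the array, for 36 of the 6786 genes named by a single symbol there. The arrays compared 3 cortex samples labelled menopausal, whose treatment is given only as VCD, with 3 control samples. The labels do not spell VCD out. They give neither strain, sex, age nor dose, nor the number of mice behind a sample. The p-values therefore reflect only how these samples scatter, which may be technical.

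TGF-beta, activin and BMP ligands bind pairs of receptor kinases, which phosphorylate Smad proteins that enter the nucleus with Smad4. Wnt ligands bind Frizzled receptors, and the signal passes through Dishevelled to a complex built on Axin that otherwise marks beta-catenin for destruction. Notch receptors are cleaved when they meet a Jagged or Delta ligand, and their freed part turns on Hes and Hey genes. In the kidney these pathways pattern the developing nephron, and in the adult they are best known for their part in fibrosis and in repair of tubules.

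Each cortex sample was hybridised on 4 of the 12 arrays, labelled with Alexa Fluor 546 on some and Alexa Fluor 647 on the others, and the number of arrays limits the precision. In a channel 16.5% to 76.8% of the spots exceeded their local background. Gene names depend on a reading of the probe layout for which probe brightness was used. Sample identities were taken from the array titles, and intensities from the scanner table under each label. Columns of the deposited value table resembled other arrays than the ones they are labelled with, so its ratios were not used. Which of the 2 carries the right labels was not tested, and the groups rest on the scanner tables. The cortex label was checked with markers. All 3 proximal tubule genes found among the annotated probes, Gatm, Lrp2 and Miox, exceeded background, with list means of -0.20 to 0.23 in menopausal and -0.13 to 0.14 in control samples (log2, centred on the 6-sample mean, as are all sample values that follow). Of 2 podocyte genes Podxl did and Wt1 did not, of 4 fibroblast and smooth muscle genes only Col3a1 did, and of 2 adrenal genes Star did and Cyp11a1 did not. Lyz2, the 1 immune gene found, exceeded background, as did Calb1 of the distal tubule and the red blood cell genes Hbb-b1 and Alas2. The 4 Calb1 probes had a median difference, menopausal minus control, of -0.20 and the lowest adjusted p of the marker lists (0.924, limma), so no marker probe passed the group test. The red blood cell genes had the widest spread over samples, with list means of 0.46, 0.03 and -0.41 in menopausal and -0.24, -0.48 and 0.64 in control samples. The part of these markers in the results was not tested. In whole cortex fewer cells of a type and less RNA per cell cannot be told apart.

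Of the 44 member probes 26, for 22 genes, were measurable, meaning that in 1 group or both, 6 or more of the 12 channel measurements exceeded local background by more than 2 of its SDs. The other 18 probes reached at most 5 of 12 measurements in either group, and 9 of them reached none. The only TGF-beta ligand probe, for Tgfb2, exceeded background in 2 of 12 menopausal and 2 of 12 control measurements. The Wnt ligand probes did so in 3 menopausal and 4 control measurements for Wnt4, which drives nephron formation, in 2 menopausal and 5 control measurements for Wnt2, and in none for Wnt6. Bmp2 reached none, while Bmp4 reached 6 menopausal and 3 control measurements. Among receptors, Tgfbr2, the ligand-binding TGF-beta receptor, the co-receptor Tgfbr3 and the BMP type II receptor Bmpr2 reached none, and Acvr2b reached 1 menopausal and 2 control measurements. The transcription factor Tcf7l1 reached none, and Heyl, the only Notch target found, reached 0 menopausal and 1 control measurement. Bmp4, Smad5 and Dkk3, an outlier of the Dickkopf family of secreted Wnt antagonists, met the minimum of 6 through the menopausal group alone, with 6, 9 and 6 measurements, against 3, 5 and 5 control measurements.

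**Figure D1:**
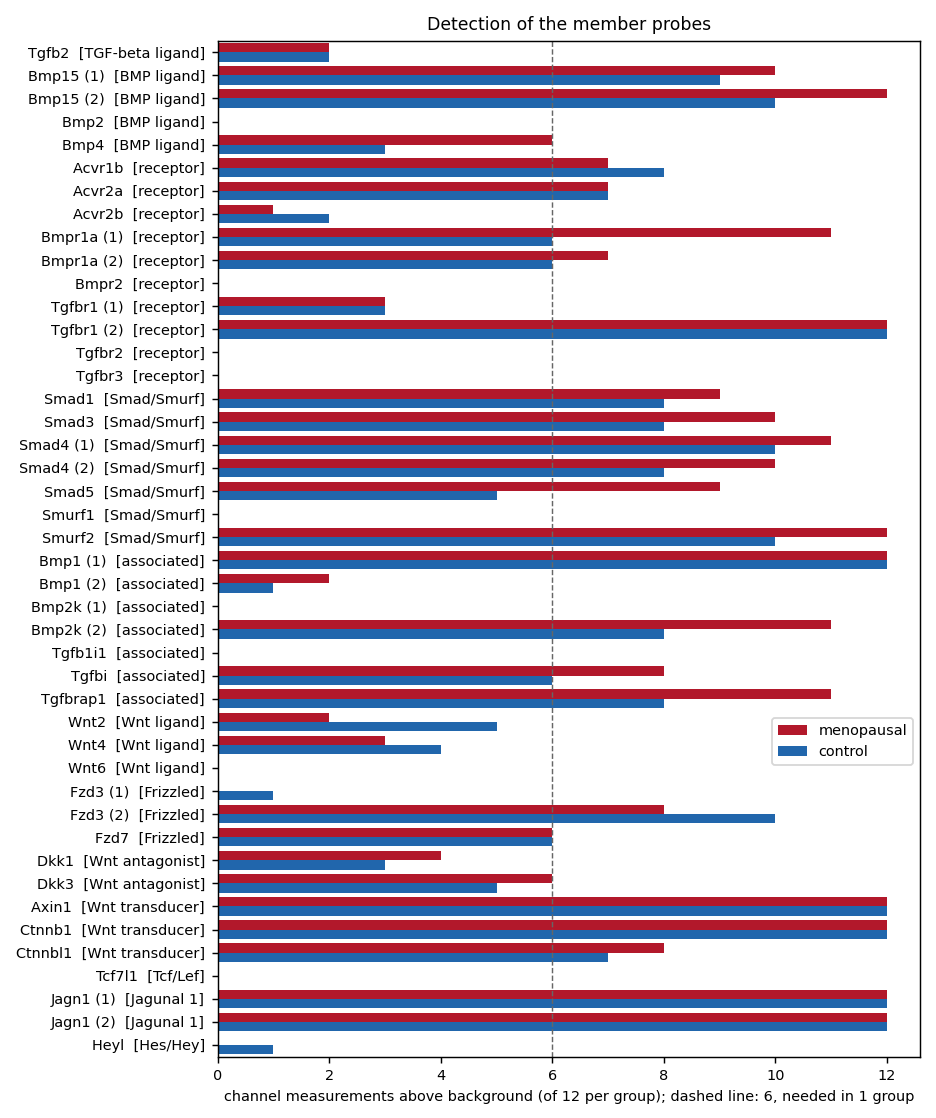
Bars give, for each of the 44 member probes, the number of channel measurements above background, out of 12 menopausal and 12 control ones, with the dashed line at the minimum of 6. Of 8 genes with 2 probes, Tgfbr1, Bmp1, Bmp2k and Fzd3 have 1 probe above the minimum and 1 below it.

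Probes of 1 gene did not always see the same signal. Tgfbr1, the TGF-beta type I receptor kinase, exceeded background in all 12 measurements of both groups at 1 probe and in 3 of 12 of each group at the other. Bmp1 did so in 12 menopausal and 12 control at 1 probe, and in 2 menopausal and 1 control at the other, and Bmp2k in 11 menopausal and 8 control at 1 probe and in none at the other. The measurable Bmp1 probe was the brightest member, with mean intensity over background from 13341.8 (Control 2) to 33250.7 (Control 3). No probe of another member gene exceeded 2310.56 (Jagn1, Control 3). Both probes named Bmp15, a growth factor known for its expression in the oocyte, exceeded background, in 10 and 12 menopausal and in 9 and 10 control measurements. What these spots hold was not tested.

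The main comparison asked whether pathway genes differ between menopausal and control cortex. No member passed the test. With limma and a threshold of 0.05 on the adjusted p, 0 of 7668 measurable probes were called (0%). At an unadjusted p under 0.05 limma called 0 of the 26 members, against 375 probes (4.89%) on the whole array, 2.53% higher and 2.36% lower in menopausal samples. That count depended on 1 library: without Control 2 it was 6, and with 1 other sample left out it was 0 to 2. The share of all probes was not computed for those fits, so these counts cannot be set against 4.89%. The 3 samples of each group did not overlap at 3 members, where 12% of all probes did not overlap. Of these, Fzd3 and Axin1 had the menopausal samples on top (6.16% of all probes), and 1 Bmp15 probe had them below (5.86%), so the members' shares lay near those of the array. The 95% interval of the difference lay within a 1.5-fold change either way for 25 of 26 members, as it did for 93.8% of all probes, and that of Bmp1 lay within 2-fold, as did 99.5% of all. These intervals are not adjusted for the number of probes, and ratios on spotted arrays with an offset understate changes of dim probes.

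The differences of the members, menopausal minus control in log2, ran between -0.26 (Bmp1) and 0.20 (a Bmp15 probe). Their median was 0.03, against 0.00114 for all probes. Positive differences were found at 18 of 26 members, against 50.4% of all probes. Among the positive members, Bmp4 and Dkk3 met the minimum through the menopausal group alone, as did Smad5 among the negative ones. This count is therefore no test of direction. The median was -0.00271 with global loess and -0.0160 without Control 2, and so took either sign. Their median standard error was 0.082, against 0.093 on the whole array (n = 3 per group).

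**Figure D2:**
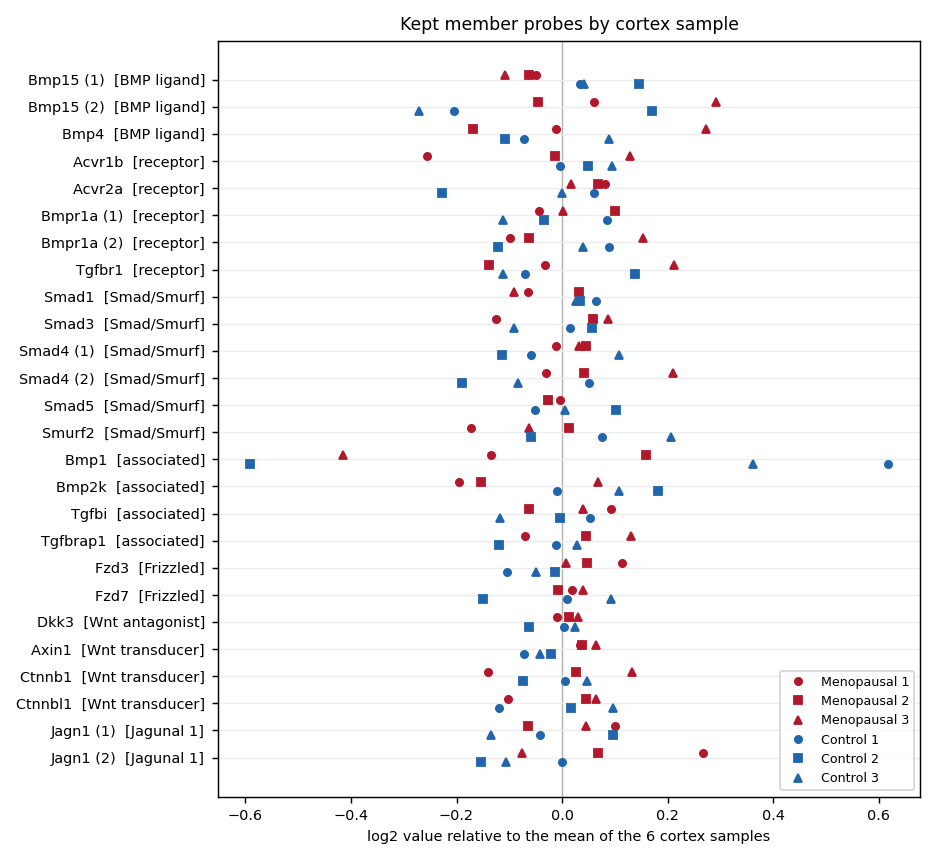
Points give the log2 value of each of the 26 measurable member probes in the 3 menopausal (red) and 3 control (blue) samples, relative to the mean of the 6. Only Fzd3, Axin1 and the first Bmp15 probe have groups that do not overlap, and Bmp1 has by far the widest spread.

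Among the ligands, the first Bmp15 probe had the smallest p of all members. It was at -0.05, -0.06 and -0.11 in Menopausal 1, 2 and 3, against 0.03, 0.15 and 0.04 in Control 1, 2 and 3. The menopausal samples all lay below the control samples, by 0.15 on average (-0.15 ± 0.07, SE, unadjusted p = 0.062, adjusted p = 0.924, limma). Without Control 2 it took the other sign, 0.042, and it was -0.088 without Menopausal 3, -0.027 with median centring and -0.0087 without background subtraction. The probe lay below local background in both channels on Control 3 over Control 2 (log2 ratio 0.45) and on Control 2 over Menopausal 1 (0.49). Its mean intensity over background was -15 in Control 2 and -17.4 in Menopausal 1. The second Bmp15 probe gave the opposite sign, 0.20 ± 0.14, with 0.06, -0.05 and 0.29 in menopausal and -0.21, 0.17 and -0.27 in control samples. That difference was 0.33 without Menopausal 1, 0.020 without Menopausal 3 and 0.028 without background subtraction. The 2 probes had the same sign in 2 of 6 samples. Bmp4, a ligand that guides branching of the ureteric bud, was at -0.01, -0.17 and 0.27 in menopausal and at -0.07, -0.11 and 0.09 in control samples. Its groups overlapped, and the difference was 0.06 ± 0.11. The Bmp4 spots lay below local background in both channels on Control 2 over Control 1 and on Control 2 over Menopausal 1.

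Among the receptors of the TGF-beta family the largest difference was that of Acvr2a, a type II receptor for activin and BMPs. It was at 0.08, 0.07 and 0.02 in menopausal samples, against 0.06, -0.23 and -0.00033 in control samples, and Control 2 alone stood apart. Its spots lay below local background in both channels on Control 3 over Control 2 and on Control 2 over Menopausal 1. The difference was 0.11 ± 0.08, and -0.00194 without Control 2. Acvr1b, the type I receptor of activin, was at -0.26, -0.01 and 0.13 in menopausal and at -0.00358, 0.05 and 0.09 in control samples. The difference was -0.09 ± 0.10, with Menopausal 1 lowest. Its spots lay below local background in both channels on Control 3 over Control 2 (-303 and -816). On Control 2 over Menopausal 1 (log2 ratio 0.45) Menopausal 1 was at -47.25 over background. Without that array the difference was -0.036. Tgfbr1 was at -0.03, -0.14 and 0.21 in menopausal and at -0.07, 0.14 and -0.11 in control samples. The groups overlapped fully, with a difference of 0.03 ± 0.12. Bmpr1a, a BMP type I receptor, had measurable signal at both probes, with differences of 0.04 ± 0.07 and -0.00488 ± 0.08.

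Of the 5 Smad probes 3 had positive and 2 negative differences, and with the negative one of Smurf2 the median was -0.01. Smad4, the partner shared by all receptor-regulated Smads, was measured by 2 probes of the same sign. The second was at -0.03, 0.04 and 0.21 in menopausal and at 0.05, -0.19 and -0.08 in control samples, a difference of 0.15 ± 0.09 (unadjusted p = 0.130, limma). The first was at -0.01, 0.05 and 0.03 in menopausal and at -0.06, -0.11 and 0.11 in control samples, a difference of 0.04 ± 0.08. The groups overlapped at both probes, and both differences were below 0 without Control 2 (-0.0227 and -0.0544) or without Menopausal 3 (-0.0151 and -0.00474). Smad1, which carries BMP signals, was at -0.06, 0.03 and -0.09 in menopausal samples, against 0.06, 0.03 and 0.03 in control samples, with a difference of -0.08 ± 0.07. Smad5, its close relative, differed by -0.04 ± 0.06, and Smad3, which carries TGF-beta signals, by 0.01 ± 0.08. Smurf2, a ubiquitin ligase that targets Smads and TGF-beta receptors, was at -0.17, 0.01 and -0.06 in menopausal and at 0.07, -0.06 and 0.21 in control samples. Its difference was -0.15 ± 0.09 (unadjusted p = 0.130, limma), and ran from -0.26 without Control 2 to -0.03 without Control 3.

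Of the genes that share only a name or a contact with the TGF-beta family, Bmp1 encodes a protease that trims procollagen and also cleaves the BMP antagonist chordin. Its measurable probe was at -0.13, 0.16 and -0.41 in menopausal samples, against 0.62, -0.59 and 0.36 in control samples. The control samples spanned the menopausal ones, and the difference was -0.26 ± 0.31. It was -0.57 without Control 2 (unadjusted p = 0.012, adjusted p = 0.715, limma), -0.15 without Control 1, -0.10 without Menopausal 3 and -0.059 without Control 3. Bmp2k, a kinase found as a BMP-induced gene, was at -0.20, -0.15 and 0.07 in menopausal and at -0.01, 0.18 and 0.11 in control samples, a difference of -0.19 ± 0.10 (unadjusted p = 0.110, limma). Menopausal 3 lay within the control range. The Bmp2k spots lay below local background in both channels on Control 3 over Control 2 (-262.75 and -156.25). The difference was -0.275 without the array of fewest spots above background and -0.051 without background subtraction. Tgfbi, an extracellular matrix protein that TGF-beta induces, differed by 0.05 ± 0.07, from 11 arrays, since 1 array gave it no usable ratio. Tgfbrap1, a vesicle tethering factor first found through its binding to TGF-beta receptors, was at -0.07, 0.04 and 0.13 in menopausal and at -0.01, -0.12 and 0.03 in control samples, a difference of 0.07 ± 0.08.

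The name pattern gave 6 measurable probes on the Wnt side, of which Ctnnbl1, a protein of the spliceosome, resembles beta-catenin by name alone. The other 5 had positive differences, between 0.01 and 0.11, where 50.4% of all probes were positive. With global loess 4 of them, those of Fzd3, Fzd7, Dkk3 and Ctnnb1, were below 0. Dkk3 met the minimum through the menopausal group alone, so the count of positive probes is no test of direction. Fzd3, a Frizzled receptor of the planar cell polarity pathway, was at 0.11, 0.05 and 0.01 in menopausal samples, against -0.11, -0.01 and -0.05 in control samples. The groups did not overlap, and the difference was 0.11 ± 0.06 (unadjusted p = 0.095, adjusted p = 0.924, limma), but -0.02 with global loess and 0.013 without Control 1. Its second probe was not measurable. Axin1, the scaffold of the beta-catenin destruction complex, was at 0.03, 0.04 and 0.06 in menopausal samples, against -0.07, -0.02 and -0.04 in control samples. It exceeded background in every measurement, its groups did not overlap, and the difference was 0.09 ± 0.08 (unadjusted p = 0.271, limma). It was 5.7e-05 with spot means in place of medians and 0.0069 without background subtraction. Its own SDs were 0.017 in menopausal and 0.026 in control samples, and limma's standard error also draws on probes of like brightness. Ctnnb1, beta-catenin itself, also exceeded background in every measurement. It was at -0.14, 0.03 and 0.13 in menopausal and at 0.01, -0.07 and 0.05 in control samples, with a difference of 0.01 ± 0.11 and a 95% interval from -0.24 to 0.26. Fzd7 differed by 0.03 ± 0.07 and Dkk3 by 0.02 ± 0.05. Dkk3 varied least of all members, by 0.09 over the 6 samples. It was dim, with 6 menopausal and 5 control measurements above background, and the offset understates changes of dim probes. With median centring its difference was -0.148. Ctnnbl1 differed by 0.00401 ± 0.08.

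No Notch pathway member proper was measurable. No annotated probe with a single symbol named a Notch receptor or a Delta ligand. Jagn1, which the name pattern took in beside the Jagged genes, encodes an endoplasmic reticulum protein known from neutrophil function and not a Notch ligand. Its second probe was at 0.27, 0.07 and -0.08 in menopausal and at 0.00037, -0.15 and -0.11 in control samples, a difference of 0.17 ± 0.12 with Menopausal 1 highest. The first probe, also above background in every measurement, differed by 0.05 ± 0.11, and the 2 probes had the same sign in 2 of 6 samples.

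**Figure D3:**
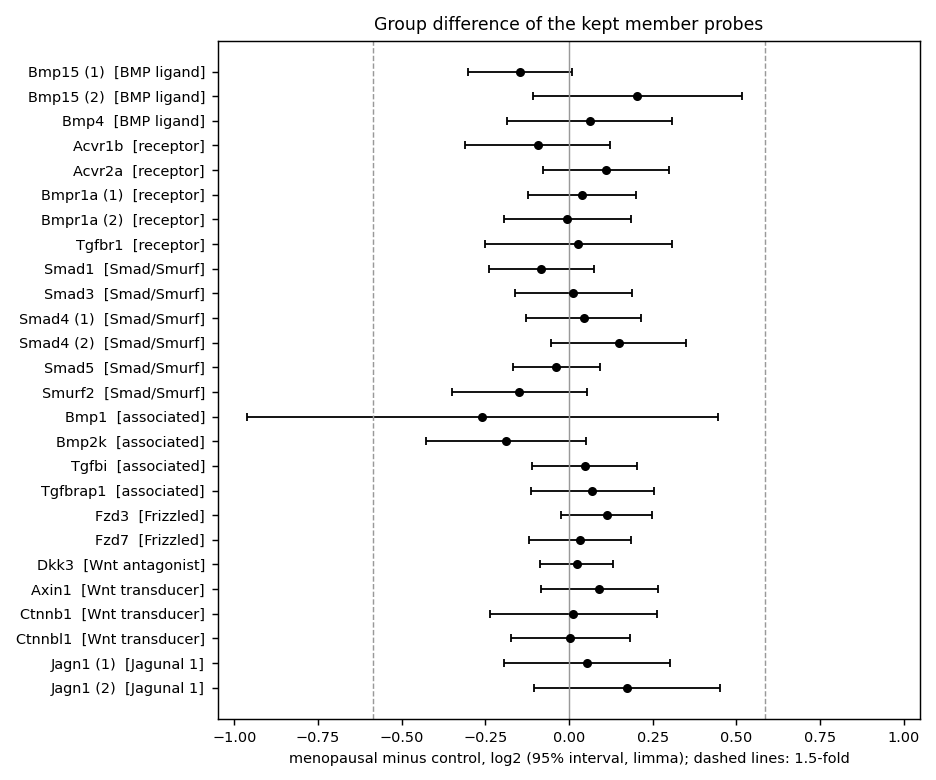
Points give the difference, menopausal minus control in log2, of each measurable member probe, with bars for the 95% interval (limma, n = 3 per group) and dashed lines at a 1.5-fold change. Every interval includes 0, and all but that of Bmp1 lie between the dashed lines.

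The arrays within a group asked how far samples of 1 group differ from each other, with the scatter of repeated hybridisations of the same RNA, a technical error, as the yardstick. No member passed this test among control samples, where 83 of all probes did (1.08%), or among menopausal samples, where 29 did (0.378%; limma moderated F, adjusted p of 0.05). At an unadjusted p under 0.05 there were 3 of 26 members among control samples, against 13.7% of all probes, and 1 among menopausal samples, against 13.1%. Bmp1 had the widest range among control samples, 1.21 (unadjusted p = 0.0045, adjusted p = 0.153, limma), and only 2.22% of all probes had a range of at least 1 over the 6 samples. On the 3 arrays between control samples its log2 ratio was -1.42 for Control 2 over Control 1, 0.94 for Control 3 over Control 2 and 0.54 for Control 1 over Control 3. Control 2 was the lower sample on both arrays that held it, and its log2 ratio over Menopausal 1 was -0.084. The range was 0.080 without Control 2, and among the fits run it passed only without Menopausal 2 (range 1.40, adjusted p = 0.0335, limma). It did not pass under any setting that kept all samples. The Bmp1 probe was also the brightest member, and what its spots hold was not tested. The other members under an unadjusted p of 0.05 were Acvr2a, with a range of 0.29 and Control 2 lowest (unadjusted p = 0.029, adjusted p = 0.298, limma), and the second Bmp15 probe, with a range of 0.44 and Control 2 highest (unadjusted p = 0.040, adjusted p = 0.333, limma). Both probes lay below local background in both channels on Control 3 over Control 2. At Acvr2a intensity over background there was -362 for Control 3 and -913.5 for Control 2. At Bmp15 it was -1378 and -207 (log2 ratio -0.92). Acvr2a also lay below background on Control 2 over Menopausal 1 (-239.25 and -358.25, log2 ratio -0.41). The part of such spots in these ranges was not tested. Among menopausal samples the 1 such member was Bmp4, with a range of 0.44 and Menopausal 3 highest (unadjusted p = 0.0065, adjusted p = 0.234, limma). On Menopausal 3 over Menopausal 2 (log2 ratio 0.57) its intensity over background was 238.75 for Menopausal 3 but 19.25 for Menopausal 2. On Menopausal 1 over Menopausal 3 the log2 ratio was 0.014. Bmp4 lay below background on Control 2 over Menopausal 1 (-10.75 and -6.75). The part of these dim spots in the range was not tested. The median range of the members over the 6 samples was 0.25, against 0.30 for all measurable probes.

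**Figure D4:**
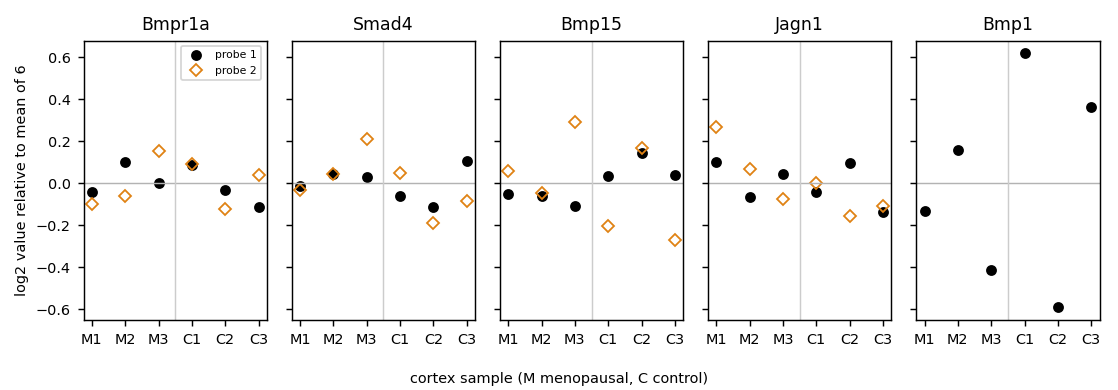
Values (log2, centred on the 6-sample mean) of the 4 genes with 2 measurable probes and of Bmp1, in Menopausal 1 to 3 and Control 1 to 3. The 2 probes of Smad4 and of Bmpr1a share their sign in 4 of 6 samples and those of Bmp15 and Jagn1 in 2 of 6, while Bmp1 spans 1.21 within the control samples.

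Other genes of the same pathways, taken from lists of modulators, processing enzymes and targets, were examined beside the members, and 0 of their probes passed the group test (limma). Of 15 measurable probes of TGF-beta and BMP pathway genes 7 had positive and 8 negative differences, with a median of -0.02. Of these 15, 2 had an unadjusted p under 0.05, where 4.89% of all probes did. The lists were chosen with earlier results of these data known, so this count is no test of the list. The 2 were probes of Id1 and Id2, inhibitors of basic helix-loop-helix factors that BMP signals induce. Id1 was at 0.06, -0.30 and -0.44 in menopausal samples, against 0.23, 0.30 and 0.15 in control samples (-0.45 ± 0.13, unadjusted p = 0.0062, adjusted p = 0.924, limma). All menopausal values lay below all control values, as at 5.86% of all probes, and the difference ran from -0.77 without Menopausal 1 to -0.20 without Menopausal 3. One Id2 probe had the opposite sign, 0.16 ± 0.05 (unadjusted p = 0.015, adjusted p = 0.924, limma), and was at -0.02 without background subtraction. It exceeded background in 6 of 12 menopausal and only 2 of 12 control measurements, and so met the minimum through the menopausal group alone. The other Id2 probe differed by 0.14 ± 0.12. Of 18 measurable probes of Wnt pathway genes 13 had positive and 5 negative differences, where 50.4% of all probes were positive, with a median of 0.05. The 18 probes stand for 14 genes, and several are of Csnk1a1, all positive. Of the positive probes, 1 of Csnk1a1 and those of Frat2 and Rnf43 met the minimum through the menopausal group alone. They had 9, 6 and 7 menopausal against 3, 3 and 4 control measurements above background. The count is therefore no test of direction. The smallest p was at Tle4, a Groucho corepressor (0.11 ± 0.07, unadjusted p = 0.120, limma). Of 7 measurable probes of Notch pathway genes 3 were positive and 4 negative, with a median of -0.04. Among the positive ones, Rbpj met the minimum through the menopausal group alone, with 9 menopausal against 5 control measurements. The smallest p of the Notch list was that of Aph1a, a subunit of the gamma-secretase that cleaves Notch. It was at -0.63, 0.12 and -0.07 in menopausal and at 0.17, 0.07 and 0.34 in control samples. Its difference of -0.39 ± 0.17 (unadjusted p = 0.052, adjusted p = 0.924, limma) was -0.28 without Menopausal 1 and -0.27 without Control 3.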

How the data were processed

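Per the file headers, each deposited scanner table lists raw intensity and local background of every spot in both channels. No source used here names the image software. The authors also deposited a value table of log2 ratios, whose making the labels do not describe. It served only a check: its rows follow the scanner order, each of its 12 columns was closest to 1 other array (correlation of 0.401 to 0.746 in size, always negative) and 0 to the array of its own label (-0.263 to 0.106).

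The 31200 spots are 15600 probes in 2 adjacent copies. Under the mirrored layout used, probes of 1 gene correlated in brightness at 0.499, against 0.0446 in scanner order. Of 9191 probes with 1 symbol, 9085 symbols (all 44 members) were updated through the GRCm38.p6 gene table. With limma 3.58.1 in R 4.3.3, spot medians were corrected by normexp (offset 50), ratios were normalized by print-tip loess, abnormal spots had weight 0 and copies were averaged. Print-tip loess was used because blocks explained 0.315 of the variance in group differences under global loess. It centres each block, so the 0.00488 left is fixed by its construction and does not show which normalization is right, and 6 members have the other sign under global loess. A fit with a dye term turned 12 ratios into 6 sample values, compared 3 against 3 by limma (trended on intensity), with p-values adjusted by Benjamini-Hochberg over 7668 probes. Differences within a group were tested by limma's F statistic on the 12 arrays (6 residual degrees of freedom). Values by sample were given for the 12 member probes of smallest p and the 10 of widest range, 15 in all, and, chosen after their values were seen, for Ctnnb1 and the first Smad4 probe. Other members are given by their difference. Members and lists were chosen with earlier results of these data known. The scripts were tested on simulated data.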

Additional observations from a re-analysis of the deposited data

How the results depend on the processing

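Across 19 alternatives, among them 6 with 1 sample left out and 1, without the array of fewest spots above background, chosen after seeing the data, none of the 472 member differences passed an adjusted p of 0.05 (limma, smallest 0.594). Signs were not stable: 20 of 26 member probes changed sign somewhere. At an unadjusted p under 0.05 the members numbered 2 with global loess (Bmp4, Smurf2), 1 with scaling between arrays, 1 without background subtraction, 1 without the filter on dim probes, 1 with arrays as replicates and 0 to 6 with 1 sample left out. The shares of all probes at that threshold were not computed for these fits. Over all probes 5 passed the adjusted threshold with arrays as replicates. Members past it among control samples numbered 0 to 1 with 1 sample left out. Whether the sample numbers shared by the groups pair them cannot be told from these data. Same-numbered deviations correlated at -0.356, -0.515 and -0.114, but same-numbered samples never shared an array, and the array layout bears on that sign. With the number as a block 0 members had an unadjusted p under 0.05.

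Reversed signs, whose cause was not tested, were as follows. With global loess Bmpr1a (first probe) was at -0.0920, Ctnnb1 at -0.00250, Dkk3 at -0.0387, Fzd3 at -0.0192, Fzd7 at -0.00291 and Smad3 at -0.132. With median centring Bmp1 was at 0.0244, Bmpr1a (first) at -0.121, Ctnnbl1 at -0.00989, Dkk3 at -0.148, Fzd3 at -0.0176, Fzd7 at -0.0266 and Smad3 at -0.172. With scaling Ctnnbl1 was at -0.00842 and Smad3 at -0.0141. Without background subtraction Acvr2a was at -0.0356, Bmpr1a (second) at 0.0371, Fzd7 at -0.0610, Smad1 at 0.00656, Smad3 at -0.0356, Smad5 at 0.0144 and Id2 at -0.0205. Bmpr1a (second) was at 0.0179 with an offset of 16 and at 0.0150 with spot means. Without the dimmest array it was at 0.0220, Dkk3 at -0.0148, Fzd7 at -0.0970, Smad3 at -0.00674 and Tgfbr1 at -0.0304.

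With 1 sample left out, differences ran from -0.00194 to 0.196 for Acvr2a, -0.264 to 0.0415 for the first Bmp15 probe, -0.105 to 0.151 for Bmp4, -0.167 to 0.161 and -0.0140 to 0.102 for Bmpr1a, -0.17 to 0.167 for Ctnnb1, -0.0751 to 0.158 for Ctnnbl1, -0.0556 to 0.0550 for Dkk3 and -0.134 to 0.130 for Fzd7. They ran from -0.0305 to 0.118 for the first Jagn1 probe, -0.0543 to 0.0580 for Smad3, -0.0227 to 0.319 and -0.0544 to 0.115 for Smad4, -0.112 to 0.0666 for Smad5, -0.0259 to 0.115 for Tgfbi, -0.0532 to 0.120 for Tgfbr1 and -0.0832 to 0.153 for Tgfbrap1. Signal over background limits the 18 probes that stayed under the filter, for which no difference is given.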
